A study of Mus musculus with 12 samples.

Results

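The heat shock chaperones described here were 10 genes taken by symbol from a table of 53715 gene identifiers: Hsph1, Hspa1a, Hspa1b, Hspa8, Hsp90aa1, Hsp90ab1, Hspd1, Hspe1, Dnaja1 and Dnajb1. All 10 were among the 16558 genes with enough counts to be tested. The list was selected on the expected counts of these same 12 libraries, in each library and across the 4 groups, so the levels and differences of these 10 genes are given as a description. Counts of them past a threshold in the edgeR fit of all 12 libraries are printed beside the share of all genes. Nothing is read from these or other counts of them. RNA-seq was done on whole ileal and colonic mucosa of C57BL/6J mice, 3 libraries for each tissue and genotype. Control mice were labelled Slc39a8-fl/fl, although by the study's methods floxed, wild-type and Cre-carrying animals all served as controls. KO mice were labelled Slc39a8-fl/fl:Villin-Cre and lack the metal transporter gene Slc39a8 in intestinal epithelial cells, the cells in which the Villin promoter drives Cre. The mice were 8-week-old males, the labels name no treatment, and they do not say whether the ileal and colonic libraries came from the same animals. In these bulk libraries, fewer cells of a type and less RNA per cell cannot be told apart.

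Chaperones bind unfolded stretches of other proteins and let them go in cycles driven by ATP. HSP70 proteins take up such clients with the help of J-domain proteins, HSP110 proteins such as Hsph1 reset HSP70 by exchanging its nucleotide, HSP90 acts late on kinases and steroid receptors, and the mitochondrial HSP60 and HSP10 chaperonin encloses proteins in a chamber. Many of these genes are switched on by heat shock factor 1 (HSF1), which binds repeats of the 5-base unit NGAAN in alternating orientation, and the intestinal epithelium is known to make inducible HSP70 in response to its luminal content.

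The HSF1 unit is shown first because several of the 10 genes are textbook targets of this factor. A pair of adjoining units reads GAANNTTC or TTCNNGAA, and 15.1% of 32851 RefSeq promoter windows of the mouse (250 bases before to 50 after each start, GRCm38) held at least 1 such match on either strand. A run of 3 units reads GAANNTTCNNGAA or TTCNNGAANNTTC, each of which contains the shorter motif, and occurred in 0.60% of the windows. RefSeq windows were given for 7 of the 10 genes, Hspa8, Hsp90aa1 and Hsp90ab1 having none in the table. The shorter motif was found in 6 of the 7 genes, all but Dnajb1, and the longer motif in 3 of the 7, Hspd1, Hspe1 and Hsph1. Among all 27025 genes with a window these shares were 17.0% and 0.66%. A match is a description of letters and not a measured binding site. Stretches of 30 bases around the matches are printed 5′ to 3′ on the strand of each gene, with the matched letters in capitals.
Hspe1, chr1:55088053-55088082, plus strand: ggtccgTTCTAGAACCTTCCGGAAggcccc
Hspd1, chr1:55088053-55088082, minus strand: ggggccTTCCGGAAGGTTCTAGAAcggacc
Hsph1, chr5:149636279-149636308, minus strand: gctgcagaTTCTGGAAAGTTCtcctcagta
Hsph1, chr5:149636351-149636380, minus strand: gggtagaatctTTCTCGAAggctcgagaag
Dnaja1, chr4:40722333-40722362, plus strand: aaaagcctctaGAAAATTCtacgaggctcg
Hspa1a, chr17:34972242-34972271, minus strand: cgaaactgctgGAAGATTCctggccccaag
Hspa1b, chr17:34959324-34959353, minus strand: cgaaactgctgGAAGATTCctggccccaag

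Hspd1 and Hspe1, which encode HSP60 and HSP10, lie head to head on chromosome 1, and the first pair of lines is the same 30 bases read from either strand. Its run of 18 matched bases is the longest of those shown. It lies 89 bases before the RefSeq start of Hspe1 and 144 bases before 1 of the 2 RefSeq starts of Hspd1, inside an annotated exon of Hspd1. The Hsph1 stretch with the longer motif lies in an exon that the annotation gives to Hsph1, and the Dnaja1 stretch lies in exons of Dnaja1 and of Gm6297 on the other strand. The Hspa1a and Hspa1b stretches lie between genes, 104 bases before each start, and are letter for letter the same.

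The stretch before Hspa1a and Hspa1b is given at full length, since both genes are stress-inducible HSP70 copies whose reads are hard to separate. Over the 250 bases before the start, 247 were identical, and the 3 differences were C44T, T47C and T249G, with the Hspa1a base first and positions counted from 1 at the 5′ end of the printed run.
Hspa1a, chr17:34972157-34972406, minus strand: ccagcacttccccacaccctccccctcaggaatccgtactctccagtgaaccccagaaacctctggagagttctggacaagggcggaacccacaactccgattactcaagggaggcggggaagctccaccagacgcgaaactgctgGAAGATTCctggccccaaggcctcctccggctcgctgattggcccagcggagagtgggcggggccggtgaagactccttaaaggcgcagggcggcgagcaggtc
Hspa1b, chr17:34959239-34959488, minus strand: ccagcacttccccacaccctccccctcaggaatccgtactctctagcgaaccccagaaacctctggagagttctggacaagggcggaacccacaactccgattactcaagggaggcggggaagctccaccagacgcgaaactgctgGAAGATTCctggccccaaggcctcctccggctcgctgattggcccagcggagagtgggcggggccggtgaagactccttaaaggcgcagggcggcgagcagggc

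The libraries held between 16749138 and 27903083 expected counts, which are estimates of reads and can hold decimals. Levels below are CPM, a gene's counts scaled to a common library size, with TMM factors. In ileum, Slc39a8 itself ranged over 5.22 to 8.39 CPM in control and 2.62 to 4.35 CPM in KO libraries. In colon the ranges were 20.1 to 20.8 CPM (control) and 7.35 to 11.5 CPM (KO), so each KO library was below every control library of its tissue. The libraries ileum control 3 and ileum KO 1 stood apart: 7 smooth muscle markers summed to 34.6 and 20.6 CPM there and to between 1843 and 2677 CPM in the other 4 ileal libraries. They differed in other cell markers too. The ileal marker Lyz1 was at 6360 and 4742 CPM there, against 1839 to 2459 CPM in the other 4. The plasma cell marker Jchain was at 104 and 91.1 CPM, against 437 to 811 CPM. In ileum KO 2, 4 colon markers summed to 2829 CPM, against 88.0 to 450 in the other ileal and 15498 to 27926 in the colonic libraries. The sum of 7 epithelial markers came to 16773 to 21629 CPM in ileum and to 8403 to 9704 CPM in colon.

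Per kilobase of exon, a scale for a rough comparison of genes, Hspa8 was the most abundant of the 10. Its mean was 262.9 CPM per kb over the 12 libraries, rank 210 among the 16558 genes. The length joined the exons of all annotated transcripts: 8629 bases from 10 transcripts for Dnaja1, 7266 from 11 for Hsph1 and 2967 from 1 for Hspa1a. The order of genes on this scale therefore depends on the annotation too. Hsp90ab1 followed at 106.4, Hsp90aa1 at 77.9, Hspd1 at 66.5, Hspe1 at 57.7 and Dnaja1 at 29.6 CPM per kb. The lowest 4 levels were those of Dnajb1 at 14.9, Hspa1b at 10.7, Hsph1 at 6.13 and Hspa1a at 4.22 CPM per kb. Together the 10 genes took 1617 to 3572 CPM of a library, of which Hspa8 alone made up 43.0 to 52.7%.

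In colon compared with ileum, the fitted differences were negative for 8 of the 10 genes and positive for the inducible HSP70 pair, in both genotypes. In control mice the median log2 difference of the 10 genes, colon over ileum, was -0.47, with 2 genes positive, while the median over all genes tested was 0.016. In KO mice it was -0.50, with all genes at 0.014. At an adjusted p under 0.1 in edgeR, 2 members were higher in colon in control mice (Hspa1a and Hspa1b; 16.2% of all genes tested were called higher) and 4 were lower (Hsph1, Hspa8, Hspd1 and Dnaja1; 19.6% of all genes). In KO mice none of the 10 was called higher (17.1% of all genes) and 5 were called lower (Hsph1, Hspa8, Hspe1, Dnaja1 and Dnajb1; 20.0% of all genes). In KO mice the call of Hspa8 was lost without ileum KO 1, ileum KO 3, colon KO 1 or colon KO 2, that of Hspe1 without colon KO 3, and that of Dnajb1 without any 1 of 7 libraries. Lower calls in both genotypes were made for 3 genes, out of 4 called lower in control and 5 in KO mice. How often this held over all genes was not counted.

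**Figure D1:**
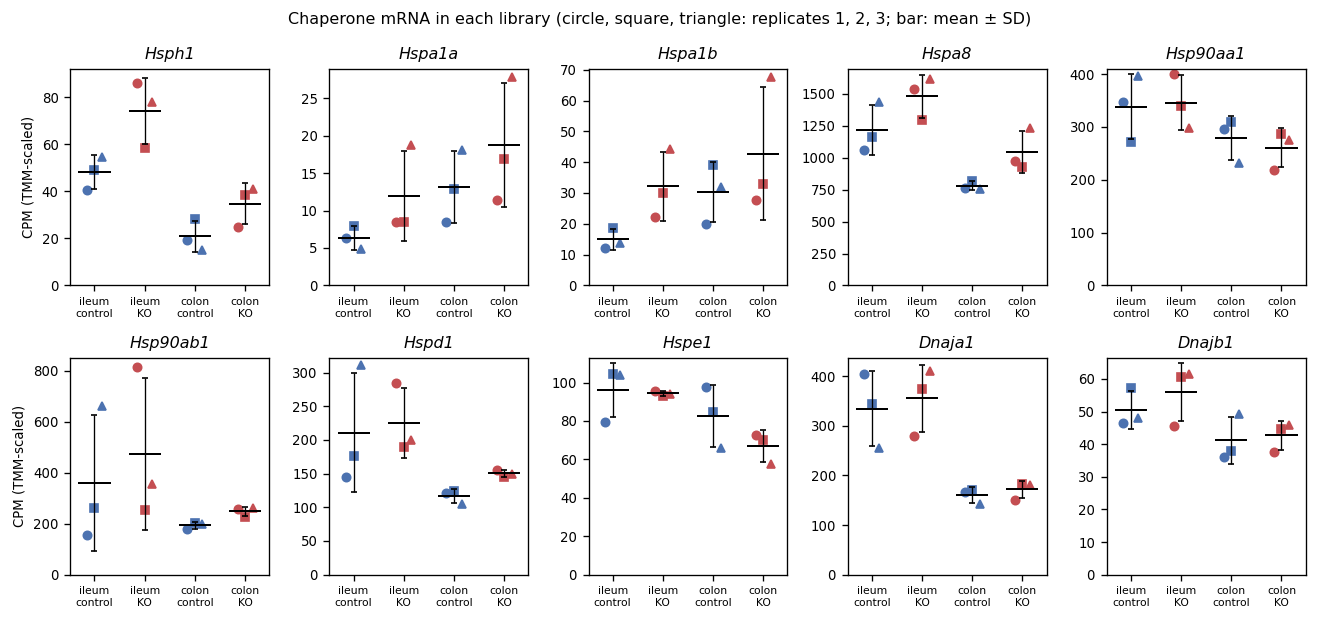
TMM-scaled CPM of each chaperone gene (y axis, linear from 0, scaled separately per gene) in the 12 libraries, by tissue and genotype (x axis, blue control and red KO); circles, squares and triangles are replicates 1, 2 and 3, and bars are the mean ± SD of 3 libraries. Hsph1 was highest in the 3 ileal KO libraries (58.5 to 86.2 CPM), Dnaja1 was higher in every ileal (255 to 410.2 CPM) than in every colonic library (142 to 183 CPM), and Hsp90ab1 had 1 ileal library of each genotype far above the rest (664 and 814 CPM).

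Hsph1 (chr5:149614287-149636376, minus strand) encodes the HSP110 protein that exchanges nucleotide on HSP70 (coordinates of genes are from GRCm38 with GENCODE M21). It was at 40.7, 49.2 and 54.8 CPM in ileal control and at 86.2, 58.5 and 77.8 CPM in ileal KO libraries. In colon it was at 19.1, 28.2 and 15.1 CPM in control and at 24.8, 38.5 and 41.0 CPM in KO libraries. Every ileal KO library was thus above every ileal control library, while the colonic genotypes overlapped in 1 library of each. The log2 difference of colon over ileum was -1.21 (SE 0.26) in control and -1.09 (SE 0.25) in KO mice. The log2 difference of KO over control was 0.62 (SE 0.25) in ileum and 0.74 (SE 0.25) in colon, and 0.68 (SE 0.17) over both tissues. Group means were 48.3 ± 7.09 and 74.2 ± 14.2 CPM in ileal control and KO, and 20.8 ± 6.71 and 34.8 ± 8.70 CPM in colonic control and KO libraries (SD, n = 3 each). No stretch of 75 bases in its exons occurred in another gene.

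Hspa1a (chr17:34969190-34972156, minus strand) and Hspa1b (chr17:34956436-34959238, minus strand) encode the stress-inducible cytosolic HSP70. Hspa1a was at 6.32, 7.999 and 4.80 CPM in ileal control, 8.47, 8.44 and 18.8 in ileal KO, 8.499, 12.8 and 18.1 in colonic control and 11.4, 16.9 and 27.8 in colonic KO libraries. Hspa1b was at 12.2, 18.7 and 13.9 CPM in ileal control, 22.2, 29.98 and 44.3 in ileal KO, 20.1, 39.1 and 31.8 in colonic control and 27.8, 32.9 and 67.5 in colonic KO libraries. Both genes were above all ileal controls in every ileal KO library, and both had their highest value of all 12 libraries in colon KO 3 and the next highest in ileum KO 3. Of the 75-base stretches of Hspa1a and Hspa1b, 54.2% and 55.8% also occurred in another gene, mostly in each other, so how reads were divided between the pair is uncertain. Hspa1b took between 63.8 and 78.0% of the summed counts in all libraries.

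Summed to 1 row, the inducible pair had a log2 difference of colon over ileum of 1.03 (SE 0.37) in control and 0.48 (SE 0.36) in KO mice. The calls of both genes in control mice were lost without ileum control 1, ileum control 3, colon control 2 or colon control 3, when Hspa1a was at 0.72 or more and Hspa1b at 0.80 or more. The summed difference of KO over control was 1.05 (SE 0.37) in ileum and 0.50 (SE 0.36) in colon. Taken alone, Hspa1a differed between genotypes by 0.90 (SE 0.42) in ileum and 0.51 (SE 0.41) in colon, and Hspa1b by 1.11 (SE 0.37) and 0.50 (SE 0.37). The colonic differences rested on colon KO 3: without it they were 0.13 for Hspa1a and 0.02 for Hspa1b, and the colon over ileum difference of Hspa1b in KO mice turned from 0.41 to -0.08. That library also held 129 CPM of 7 immune markers, against 54.0 and 77.5 in the other colonic KO libraries, and 177 CPM of 5 erythroid markers, against 23.4 and 32.4, although colon control 3 held 287 CPM of the latter. The part of those cells in the HSP70 levels was not tested. Without ileum KO 3 the ileal difference of Hspa1a fell to 0.41.

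Hspa8 (chr9:40800984-40810087, plus strand) encodes the constitutive cytosolic HSP70. It was at 1061, 1158 and 1433 CPM in ileal control and at 1534, 1292 and 1617 CPM in ileal KO libraries. In colon it was at 765, 819 and 758 CPM in control and at 972, 928 and 1232 CPM in KO libraries. All colonic KO libraries were above all colonic control libraries, whereas the ileal genotypes overlapped. The log2 difference of colon over ileum was -0.64 (SE 0.17) in control and -0.50 (SE 0.17) in KO mice, and that of KO over control was 0.28 (SE 0.17) in ileum and 0.42 (SE 0.17) in colon. Of its 75-base stretches, 32.8% also occurred elsewhere, mostly in the copy Gm15459. The inducible pair stood at 1.97 to 5.89 per 100 of Hspa8 in ileum and at 5.64 to 11.7 in colon, both per kb of exon and over both genotypes. Hspa8 was lower in colon in both genotypes. The summed pair was called higher there in control mice (1.03, SE 0.37) but not in KO mice (0.48, SE 0.36).

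Dnaja1 (chr4:40722150-40737149, plus strand) and Dnajb1 (chr8:83608193-83612653, plus strand) encode J-domain proteins that deliver clients to cytosolic HSP70. Dnaja1 was at 405, 343 and 255 CPM in ileal control, 280, 375 and 410.2 in ileal KO, 167, 171 and 142 in colonic control and 151, 183 and 182 in colonic KO libraries. Each ileal library was above each colonic library, and within a tissue the genotypes overlapped. The log2 difference of colon over ileum was -1.06 (SE 0.19) in control and -1.05 (SE 0.19) in KO mice, and that of KO over control was 0.09 (SE 0.19) in ileum and 0.10 (SE 0.19) in colon. Dnajb1 was at 46.5, 57.2 and 48.1 CPM in ileal control, 45.6, 60.7 and 61.5 in ileal KO, 36.1, 38.0 and 49.3 in colonic control and 37.7, 44.5 and 45.9 in colonic KO libraries. These ranges lay close together, with colon over ileum differences of -0.30 (SE 0.16) in control and -0.39 (SE 0.16) in KO mice and genotype differences of 0.15 (SE 0.16) in ileum and 0.05 (SE 0.16) in colon. Exons of Dnaja1 overlap Gm6297 on the opposite strand, and the sources used here do not give whether counting used strand.

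Hsp90aa1 (chr12:110690605-110702728, minus strand) and Hsp90ab1 (chr17:45567775-45573271, minus strand) encode the inducible and the constitutive cytosolic HSP90. Hsp90aa1 was at 348, 272 and 396 CPM in ileal control, 401, 339 and 297.5 in ileal KO, 296, 309 and 232 in colonic control and 219, 287 and 276 in colonic KO libraries. All 4 groups overlapped their neighbours in the order of means, although every ileal KO library was above every colonic KO library. Colon over ileum was -0.28 in control and -0.41 in KO mice, and neither was called. The genotype differences were 0.03 (SE 0.19) in ileum and -0.10 (SE 0.19) in colon. Of its 75-base stretches, 42.8% also occurred elsewhere, mostly in Gm12346.

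Hsp90ab1 was at 157, 260.0 and 664 CPM in ileal control, 814, 252 and 354 in ileal KO, 178, 203 and 200.7 in colonic control and 258, 227 and 259.7 in colonic KO libraries. The colonic genotypes did not overlap and differed by 0.36 (SE 0.49). In ileum the range within each genotype was wider than any difference between them: the SD was 268 CPM around a mean of 360.0 in control and 299 around 473 in KO libraries. The ileal difference of 0.39 (SE 0.49) became 1.196 without ileum control 3 and -0.28 without ileum KO 1. Colon over ileum was -0.89 (SE 0.49) in control mice, and -0.12 without ileum control 3.

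Hspd1 (chr1:55077835-55088243, minus strand) and Hspe1 (chr1:55088132-55091307, plus strand) encode the mitochondrial chaperonin HSP60 and its lid HSP10, and their annotated ends overlap. Hspd1 was at 145, 177 and 311 CPM in ileal control, 284, 190 and 200.2 in ileal KO, 121, 125 and 105 in colonic control and 156, 145 and 150.1 in colonic KO libraries. Hspe1 was at 79.7, 104.6 and 103.7 CPM in ileal control, 95.7, 93.2 and 94.1 in ileal KO, 97.8, 84.6 and 65.8 in colonic control and 72.9, 70.2 and 57.5 in colonic KO libraries. In colon, Hspd1 was higher in each KO than in each control library, with a log2 difference of 0.36 (SE 0.25), while the Hspe1 groups overlapped, with a difference of -0.31 (SE 0.16). Neither was called, and the difference between the genes was not tested. In ileum the genotype differences were 0.09 (SE 0.25) for Hspd1 and -0.03 (SE 0.16) for Hspe1. Colon over ileum was -0.86 (SE 0.25) and -0.58 (SE 0.25) for Hspd1 in control and KO mice, and -0.21 (SE 0.16) and -0.50 (SE 0.16) for Hspe1. Copies elsewhere held 29.6% of the 75-base stretches of Hspd1, mostly Hspd1-ps3, and 11.9% of those of Hspe1.

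**Figure D2:**
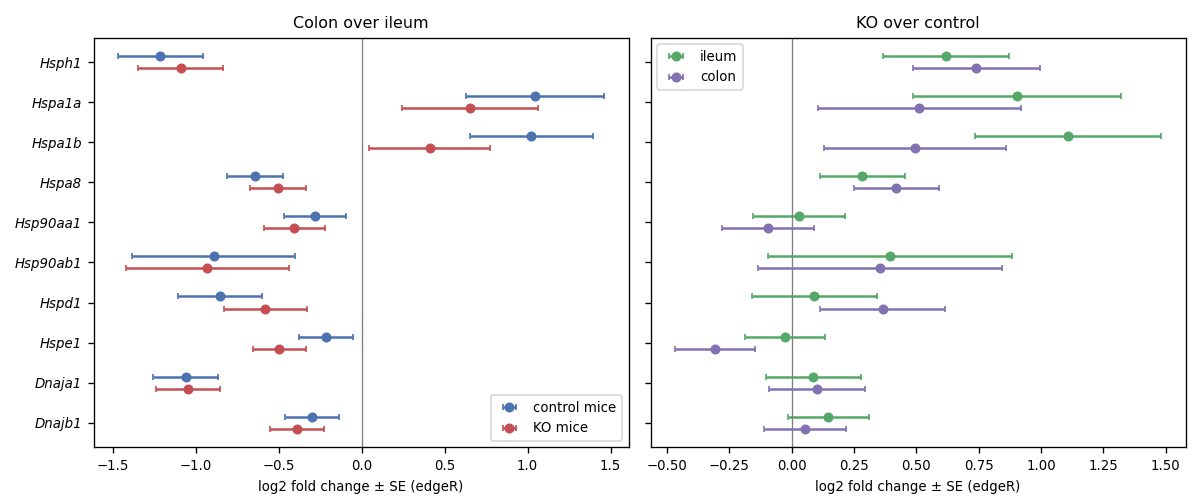
Fitted log2 fold changes (x axis) of the 10 chaperone genes with their standard errors, for colon over ileum in control and KO mice (left) and KO over control in ileum and colon (right). Hspa1a and Hspa1b lie on the opposite side of 0 from the other 8 genes in the tissue panel, and 8 of the 10 genes, all but Hsp90aa1 and Hspe1, lie above 0 in both tissues in the genotype panel, where none was called.

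With all 12 libraries, none of the 10 chaperone genes was called in a comparison of genotypes by edgeR, DESeq2 or limma-voom. KO over control had a median log2 difference of 0.21 in ileum and 0.36 in colon over the 10 genes, with all genes tested at -0.002 and 0.005, and 9 and 8 of the 10 values were positive. edgeR called 0 of the 10 genes and 0% of all genes at an adjusted p under 0.1 in ileum, in colon, over both tissues (0%) and for the interaction of genotype with tissue (0%). The deleted gene Slc39a8 was thus not called either, at a log2 difference of -1.13 over both tissues (edgeR adjusted p = 0.38). A gene without a call may therefore still differ between genotypes. The study's own DESeq2 analysis, with ileum and colon combined, reported Slc39a8 and a few other genes at an adjusted p under 0.1. In the fits made here, DESeq2 and limma-voom on the same libraries called 0 of the 10 as well. How many of all genes those 2 fits called is not given here. At an unadjusted p under 0.05, edgeR counted 252 of 16558 genes in ileum, 385 in colon, 641 over both tissues and 169 for the difference between tissues. Over both tissues Hsph1, Hspa1a, Hspa1b and Hspa8 were among these and higher in KO mice, as were 1.68% of all genes. The list was selected on the same counts, so nothing is read from this.

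In ileum every KO library was above every control library for 3 of the 10 genes, Hsph1, Hspa1a and Hspa1b, and for 2.13% of all genes. In colon this held for Hspa8, Hsp90ab1 and Hspd1, and for 6.98% of all genes. Hsph1, which overlapped in 1 colonic library of each genotype, had a fitted difference no smaller in colon (0.74) than in ileum (0.62). No chaperone gene had every KO library below every control library. Whether genotype effects differed between tissues was tested in the same fit, and the difference for Hspa1b, the largest in size, was -0.61 (SE 0.52). Without the 2 ileal libraries with few muscle transcripts, a choice made after the values were seen, DESeq2 called 161 of all genes over both tissues. Among them were Hsph1 (log2 difference 0.68, SE 0.19), Hspa8 (0.41, SE 0.10) and Hspd1 (0.33, SE 0.091). edgeR without the same libraries did not call these 3 genes, and nothing is read from the DESeq2 calls.

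**Figure D3:**
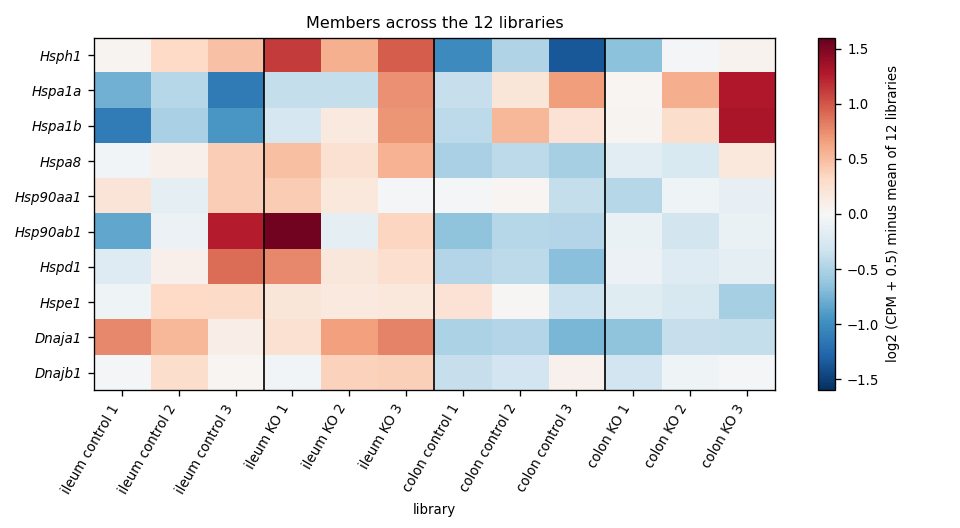
Each cell is the log2 of CPM plus 0.5 of a chaperone gene (rows) in a library (columns) minus that gene's mean over the 12 libraries, red above and blue below the mean, with vertical lines between the 4 groups. Hspa1a and Hspa1b peak together in colon KO 3 (27.8 and 67.5 CPM), whereas Hsp90ab1 and Hspd1 peak together in ileum control 3 and ileum KO 1.

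The 2 muscle-poor ileal libraries, 1 per genotype, stood at an end of the ileal range for 4 of the 10 genes. Each of the 7 muscle markers was low in both, with Myh11 at 8.29 and 3.34 CPM against 502 to 698 CPM in the other 4. Both were above the other 4 ileal libraries for Hsp90ab1 (2.89 times their mean), Hspd1 (1.67 times) and Hsp90aa1 (1.27 times), and 23.2% of all genes had this pattern. Both were below for Dnaja1 (0.70 times), as were 27.2% of all genes. The inducible HSP70 genes overlapped, at 0.64 times for Hspa1a and 0.69 times for Hspa1b. Within these 2 libraries the ratio of KO to control was 1.57 for Hsph1 and 1.61 for Hspa1b, and within the other 4 it was 1.52 and 2.41. For Hspa8 the ratio was 1.07 within the pair, 1.31 within the other 4 and 1.34 in colon. For Hspd1 it was 0.91, 1.21 and 1.29. The part of muscle tissue, or of other cell types that differed in these libraries, in these levels was not tested.

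Other chaperones and their partners were read from a list of 92 genes, 88 of which were tested. In colon compared with ileum, 5 were higher and 27 lower in control mice, and 6 were higher and 26 lower in KO mice, by edgeR at an adjusted p under 0.1. Of all genes tested, 16.2% were called higher and 19.6% lower in control mice, and 17.1% and 20.0% in KO mice, which are the shares to set beside each list below. The called genes of the list in control and KO mice shared 28 genes with the same direction, 24 lower and 4 higher, 87.5% of each set. The same overlap over all genes was not counted, so nothing is read from this share. When only library size was used for scaling, the all-gene median shifted to 0.24 in control and 0.29 in KO mice, so the lower calls are relative to the typical gene. With that scaling 11 of 28 called genes of the list were higher in control mice and 18 of 28 in KO mice. Without colon KO 2, 19 were called in KO mice. Shares of all genes are not given for these settings, so nothing is read from their counts. All 7 epithelial markers were lower in colon in both genotypes as well. Of 7 immune markers 3 were lower in control (median log2 difference -1.39) and 4 in KO mice (median -1.76), and of 4 plasma cell markers 1 was lower in each (medians -1.07 and -0.77). Plasma cell markers summed to 383 to 1115 CPM in ileal and 411 to 614 CPM in colonic libraries. The part of these cells in the chaperone differences was not tested.

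The chaperones of the endoplasmic reticulum, which fold secreted and membrane proteins, were the list with the most lower calls: 9 of 13 were lower in colon in control mice (19.6% of all genes), with a median log2 difference of -1.17. Hspa5, the HSP70 of this compartment, was at 845 to 856 CPM in ileal and 239 to 274 CPM in colonic control libraries, a log2 difference of -1.73 (SE 0.14, adjusted p = 4.7e-06). Canx, a lectin chaperone for glycoproteins, fell by 1.17 (SE 0.11, adjusted p = 2.1e-05), and Hsp90b1, the HSP90 of the compartment, by 1.39 (SE 0.16, adjusted p = 7.2e-05). Sdf2l1, a partner of Hspa5, differed by -1.33 (SE 0.17, adjusted p = 0.00016). In KO mice 9 of 13 were lower (20.0% of all genes), Hspa5 fell by 1.51 (SE 0.14, adjusted p = 1.4e-05), and Dnajc10 was higher by 0.53 (SE 0.15, adjusted p = 0.020).

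The cytosolic chaperonin CCT, which folds actin and tubulin, and its feeder prefoldin had 8 of 14 genes lower in colon in control mice (19.6% of all genes) and 7 of 14 in KO mice (20.0%), and none higher (16.2% and 17.1%). Tcp1 was at 124 to 146 CPM in ileal and 77.5 to 93.3 CPM in colonic control libraries and fell by 0.68 (SE 0.11, adjusted p = 0.00082). Cct6a fell by 0.68 (SE 0.11, adjusted p = 0.00087), Cct8 by 0.58 (SE 0.11, adjusted p = 0.0018) and Cct2 by 0.69 (SE 0.15, adjusted p = 0.0055). Of 9 other mitochondrial chaperones and proteases none was called lower, a count too small to set apart from 19.6% of all genes, and Grpel2, an exchange factor for mitochondrial HSP70, was higher by 0.46 (SE 0.16, adjusted p = 0.055) in control and by 0.50 (SE 0.16, adjusted p = 0.040) in KO mice. The Grpel2 call was lost without ileum control 2, colon control 1 or colon control 3 in control mice, and without ileum KO 1, ileum KO 3 or colon KO 2 in KO mice.

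Of 13 HSP90 co-chaperones, 1 was higher and 3 were lower in colon in control mice, and 1 and 4 in KO mice, counts near the shares of all genes (19.6% and 20.0% lower). Fkbp5, an immunophilin on HSP90 that is a known glucocorticoid target, was at 17.2, 30.1 and 100.9 CPM in ileal control and at 204, 197 and 180.3 CPM in colonic control libraries, higher in colon by 1.97 (SE 0.49, adjusted p = 0.012). Its relative Fkbp4 went the other way, by -1.13 (SE 0.31, adjusted p = 0.019), and so did Ahsa1, which speeds the ATPase of HSP90, by -0.67 (SE 0.20, adjusted p = 0.026), and Stip1, which joins HSP70 to HSP90, by -0.69 (SE 0.29, adjusted p = 0.096). The Stip1 call held in 5 of 23 alternatives. Among 9 exchange factors and partners of HSP70, Bag4 fell by 0.62 (SE 0.19, adjusted p = 0.033) and Hspbp1 by 0.71 (SE 0.23, adjusted p = 0.039) in control mice, and Bag4 alone was called in KO mice. In control mice Bag4 was no longer called without colon control 2 or colon control 3, nor Hspbp1 without ileum control 2 or colon control 3.

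Among 8 other HSP70 and HSP110 genes, 3 were lower in control and 2 in KO mice. Hspa12a, a distant HSP70 relative, was at 63.4 to 141 CPM in ileal and 7.16 to 8.65 CPM in colonic control libraries, a log2 difference of -3.72 (SE 0.37, adjusted p = 2.2e-05), the largest of the 88. Hspa13 fell by 0.68 (SE 0.20, adjusted p = 0.023) and Hspa4, an HSP110 protein, by 0.32 (SE 0.09, adjusted p = 0.026). Of 12 other J-domain genes, 2 were higher and 2 lower in control mice, with Dnaja4 at 1.25 (SE 0.42, adjusted p = 0.045) and Dnajc7 at -0.55 (SE 0.15, adjusted p = 0.016), and 1 and 3 in KO mice. Dnaja4 was not called without colon control 2. The stress factor itself, Hsf1, was not called, at 10.3 to 16.5 CPM in ileal and 13.7 to 21.5 CPM in colonic control libraries, while Hsf2, its relative, was higher in colon by 1.06 (SE 0.25, adjusted p = 0.0080) in control and by 1.07 (SE 0.25, adjusted p = 0.0078) in KO mice.

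Small heat shock proteins, which hold unfolded proteins without ATP, had 0 of 6 tested genes called between tissues, with 0 at an unadjusted p under 0.05 in edgeR. Hspb1 was at 16.3 and 18.8 CPM in ileum control 1 and 2 and at 14.5 and 14.2 CPM in ileum KO 2 and 3, and at 1.44 and 1.25 CPM in the 2 libraries with few muscle transcripts. Cryab, a crystallin abundant in muscle, was at 6.44 to 10.6 CPM in the former and at 0.25 and 0.12 CPM in the latter. Both genes thus moved with the muscle markers in ileum. For genotype, edgeR called 0 of the 88 genes in ileum, in colon, over both tissues and for the difference between tissues, with 0, 4, 4 and 1 of them at an unadjusted p under 0.05.

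**Figure D4:**
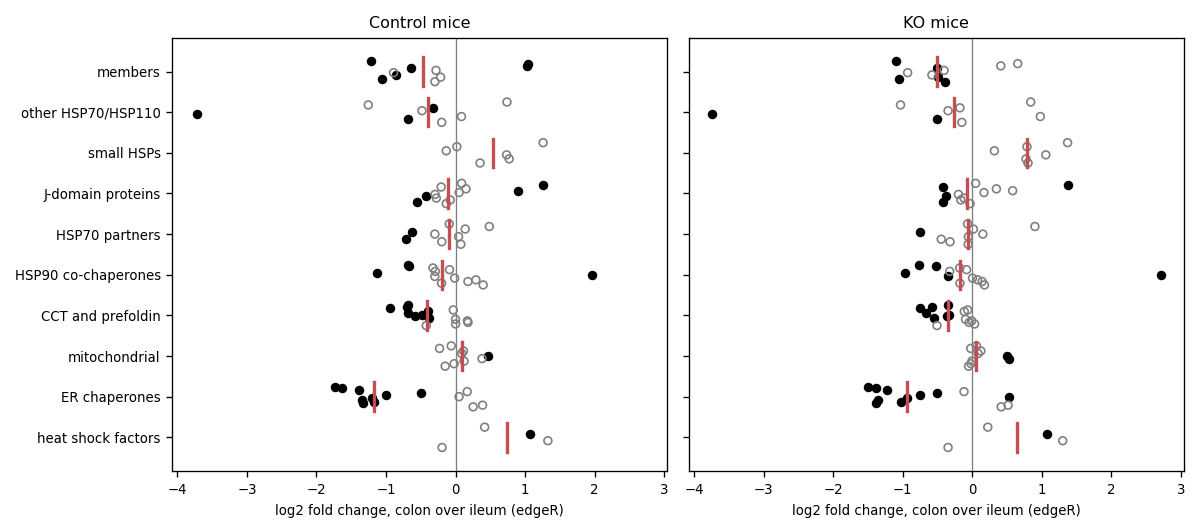
Fitted log2 fold changes of colon over ileum (x axis) in control (left) and KO mice (right) for the 10 chaperone genes (row "members") and each list of other chaperone genes (rows); filled points passed an adjusted p of 0.1 in edgeR, open points did not, and red lines are medians. The endoplasmic reticulum chaperones lie furthest to the left as a list in both genotypes, with a median of -1.17 in control mice, and Hspa12a (-3.72) and Fkbp5 (1.97) are the outermost genes.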

How the data were processed

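RNA from ileal and colonic mucosa of 12 mouse samples was sequenced, 3 for each tissue and genotype. The 10 genes, the other gene lists and the alternatives were chosen with earlier results of these data known. The authors aligned reads to mm10 with STAR and deposited expected counts per gene, not normalized, of which 93.7% were whole. The estimating tool is not named in the sources used here. The reporting notes also name unique mapping, removal of duplicates and FeatureCounts.

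Spike-in lines (92, total 0) were left out, and 53620 of 53715 identifiers had a symbol. After rounding, edgeR 4.0.16 (R 4.3.3) kept 16558 genes by filterByExpr, used TMM factors and fitted 1 quasi-likelihood model of the 4 groups. Genotype over both tissues had tissue as an additive term. Benjamini-Hochberg adjustment covered all genes tested, with a threshold of 0.1, and adjusted p-values printed are from edgeR. Alternatives were DESeq2 1.42.0, limma-voom (limma 3.58.1), other scaling factors and filters, a replicate block and leaving out libraries. The steps were tested on simulated data. Depth was 16749138 to 27903083 expected counts, which limits genes such as Hspa1a at 4.80 CPM. p-values measure only the spread between these samples and treat libraries as independent.

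For all 10 genes, levels in every library and genotype differences within each tissue were printed. Their tissue differences are all in the plot of fitted log2 fold changes, but not all in the text. Genotype over both tissues and its difference between tissues were printed for some genes only. Of each other chaperone list, up to 4 genes past the threshold in control mice with the smallest p were named, or up to 2 where none passed. The J-domain list left out the called Dnajb14 and Dnajb5. Of the genes called in KO mice only some were named. Cryab, Hspb1, Hsf1, Dnajc10 and Trap1 were named after their values were seen. Shared stretches are runs of 75 bases found in exons of another gene. Figures: matplotlib 3.10.9, Python 3.11.15.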

Additional observations from a re-analysis of the deposited data

How the results depend on the processing

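In the comparison of colon with ileum in KO mice, 5 of the 10 chaperone genes were called, beside 37.1% of all genes. Of the 10, 2 were called with upper-quartile factors, 3 with library size only and 3 with no filter on low counts. Shares of all genes are not given here for the alternatives, so nothing is read from their counts. Leaving out 1 library at a time gave 3 to 8, with 8 without ileum control 3 and 3 without any colon KO library, and 19 to 39 of the 88 other chaperone genes, against 32. In control mice, where 35.9% of all genes were called with all libraries, the same range was 4 to 6 of the 10 and 25 to 37 of the 88. Over both tissues, KO against control, DESeq2 without the 2 ileal libraries with few muscle transcripts, a setting added after the values were seen, called 3 of the 10 and 4 of the 88 genes, where the other alternatives called 0. The 4 were Ahsa1, Trap1 and Pdia4, higher in KO mice by 0.30, 0.29 and 0.30, and Pfdn4, which fell by 0.60 on the log2 scale.

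Of the log2 differences of the 10 genes under every alternative, 1318 kept their side of the threshold. These kept their sign or, where uncalled, changed it while moving by less than their SE. A further 36 lost a call, 15 gained one and 3 uncalled values changed sign by more than their SE. Of those of the other genes called between tissues, 1300 kept their call and 172 lost it. The causes were not tested. Whether same-numbered samples share an animal is not stated in the labels. Over 18 same-numbered pairs, deviations from the group means correlated between -0.73 and 0.38, with 6 pairs over 0.1, and those of ileal with colonic KO libraries were 0.22, 0.077 and 0.30. With the number as a replicate block, the calls of the 10 genes were 6 in control and 5 in KO mice between tissues and 0 for genotype, and those of the 88 genes 30 and 28.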

Other observations

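Immediate early genes, transcription factors and feedback regulators that are switched on within minutes by many stimuli, were read beside the inducible HSP70 genes. Their 13 transcripts summed to 712 to 963 CPM in ileal and to 498 to 750 CPM in colonic libraries, ranges that overlapped. The fitted differences of Hspa1a and Hspa1b were towards higher levels in colon. In control mice 2 of the 13 were higher and 2 lower in colon by edgeR at an adjusted p under 0.1. Fos differed by -1.09 (SE 0.28, adjusted p = 0.013), Zfp36, which degrades inflammatory mRNAs, by -1.09 (SE 0.17, adjusted p = 0.00069), Ier3 by 0.93 (SE 0.27, adjusted p = 0.025) and Dusp1, a MAP kinase phosphatase, by 1.33 (SE 0.46, adjusted p = 0.050). In KO mice 1 was higher and 4 were lower. Colon KO 3, the library with the most Hspa1a and Hspa1b, held 651 CPM of these transcripts, against 498 and 625 CPM in colon KO 1 and 2. The colonic control libraries 1, 2 and 3 held 566, 535 and 750 CPM.

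The 8 genes whose deviations from their group means were most like the mean deviation of Hsph1, Hspa1a, Hspa1b, Hsp90aa1, Dnajb1 and Dnaja1 over the 12 libraries were Themis (Pearson r = 0.961), Gm12977 (0.932), Arap3 (0.912), Cx3cr1 (0.905), Klc1 (0.904), Traf3ip3 (0.901), Lrrc32 (0.900) and Cog2 (0.899). They were picked as the highest of 16558 genes, the libraries share their depth and tissue make-up across genes, and the values are a description. The genes averaged did not all move together. Deviations of Hspa1a and Hspa1b correlated at 0.85, but those of Hsp90aa1 at -0.39 with Hspa1a and at -0.57 with Dnajb1. Themis and Gm12977 had low levels, at most 1.94 and 1.04 CPM in any library. Themis, a T cell gene, was at 1.94 CPM in ileum KO 3 and 0.996 CPM in colon KO 3, the highest library of each tissue.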
